A study of Mus musculus with 20 samples.

Results

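The genes described here encode the protein subunits of oxidative phosphorylation, the machinery of the inner mitochondrial membrane that turns the energy of food into ATP. They were chosen by name and class: protein-coding genes whose symbols start with Ndufa, Ndufb, Ndufc, Ndufs, Ndufv, Sdha to Sdhd, Uqcr, Cox4 to Cox8 or Atp5, without assembly factors and pseudogenes, together with the 13 protein genes of mitochondrial DNA, whose symbols start with mt-. Of 51123 gene identifiers in the count table, 99 met this rule, 86 of them nuclear (85 symbols, since Atp5o has 2 identifiers) and 13 mitochondrial. The nuclear members comprised 38 genes named for complex I, 4 for complex II, 8 for complex III, 18 for complex IV and 18 for complex V. Complexes are assigned by symbol throughout. Ndufa4, a cytochrome c oxidase subunit, and its paralog Ndufa4l2 are therefore counted under complex I. Cyc1 and Usmg5 encode further subunits whose names lie outside the rule, and Ndufb1-ps was left out because the annotation does not class it as protein-coding.

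RNA was sequenced in bulk from tdTomato-positive cells sorted from mouse skin, in 20 libraries of 7 groups. Young epidermis, from mice of 100 to 120 days, was wild type (WT, n = 3), K14cre;Wwoxfl/fl (WKO, n = 3), K14cre;p53fl/fl (PKO, n = 3) or K14cre;Wwoxfl/fl;p53fl/fl (DKO, n = 3). Epidermis of old mice (400 days and above) was wild type only (n = 2). Spontaneous cutaneous squamous cell carcinomas (cSCC), a skin cancer of keratinocytes, came from PKO (n = 3) and DKO (n = 3) mice, whose ages the labels do not give. K14cre expresses Cre recombinase in keratinocytes, so the floxed alleles are deleted in that lineage, and the labels name no Cre driver or reporter allele for the wild-type mice. The titles number the samples of a group as biological replicates.

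Total counts ran from 11930153 to 17199262 per library. Wwox and Trp53 were checked first, because they test the labels. The library labelled DKO young 3 held 7.34 CPM of Wwox and 21.1 CPM of Trp53, where CPM is a count scaled to library size, with TMM factors over all 20 libraries. The other DKO young libraries reached 0.943 CPM of Wwox and 3.31 CPM of Trp53. The library labelled DKO cSCC 3 held 45.5 CPM of Trp53, against at most 2.86 CPM in the other DKO carcinomas. The libraries labelled PKO young 2 and 3 held 21.8 and 19.2 CPM of Trp53, while PKO young 1 had 5.90 CPM and the WT young range was 30.7 to 40.0 CPM. Cell markers also separated the groups. The summed level of 7 basal keratinocyte markers was 1567 to 2773 CPM in WT young, 2776 CPM in the library labelled PKO young 3, 3105 CPM in WT old 2, and 9088 to 29117 CPM in the other 15 libraries. The summed level of 15 T and NK cell markers, all detected in WT young, reached 4004 CPM in the library labelled PKO young 3, lay between 2108 and 2851 CPM in WT young, and was at most 1068 CPM elsewhere. The sum of 9 markers of differentiated keratinocytes lay between 426 and 959 CPM in the WT young libraries. It was 964 CPM in the library labelled PKO young 3 and ran from 2473 to 14034 CPM over the other epidermis libraries. The sum of 7 erythrocyte markers was 829 to 3495 CPM in WT young and at most 220.1 CPM elsewhere. Fibroblast markers (10 genes) summed to 2762, 2144 and 3115 CPM in the libraries labelled PKO young 2, PKO young 3 and DKO young 3. They summed to 122 CPM in PKO young 1, 44.3 and 28.4 CPM in DKO young 1 and 2, and at most 1817 CPM elsewhere. In the library labelled DKO cSCC 3 the sum was 586 CPM, below the 896 and 1080 CPM of DKO cSCC 1 and 2. The part of fibroblasts in the Wwox and Trp53 levels was not tested. In bulk libraries like these, fewer cells of a type and less RNA per cell cannot be told apart.

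As background, complexes I to IV pass electrons from NADH and succinate to oxygen, complexes I, III and IV pump protons as they do so, and complex V, the ATP synthase, lets the protons back and makes ATP. Complex II is built from nuclear products alone, whereas each other complex joins nuclear subunits to proteins made inside the mitochondrion. The mt- genes are transcribed from both strands of a small circular genome as long precursors that are then cut, so nuclear and mitochondrial subunits of the same complex come from separate transcription systems. In epidermis the proliferating basal cells and the differentiating cells above them are both known to hold active mitochondria.

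The compactness of the mitochondrial genome bears on how its genes were measured, and its overlapping reading frames are shown for that reason. In the GENCODE transcripts, the last 43 bases of mt-Atp8 (21.1% of its 204) are also the first 43 of mt-Atp6, and the last 7 of mt-Nd4l are the first 7 of mt-Nd4. The capitals mark the start codon of the second gene in each pair, and reads from the shared bases cannot be assigned to 1 gene.
mt-Atp8 with mt-Atp6: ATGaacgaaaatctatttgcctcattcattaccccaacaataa
mt-Nd4l with mt-Nd4: ATGctaa

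Nuclear copies of mitochondrial DNA were a larger matter for single mt- genes. Pseudogenes at least 95% identical over at least 50% of the coding sequence held 86.1% of the counts of mt-Nd3 and its copy, 83.7% for mt-Co2, 75.2% for mt-Atp6, 71.1% for mt-Co3 and 34.5% for mt-Nd4l, summed over the 20 libraries. The copies of mt-Co2, mt-Atp6, mt-Co3 and mt-Nd4l that took these counts were 100% identical to the gene, so the authors' estimation had nothing within the copied stretch to tell them apart. The copies of mt-Co1, mt-Nd4 and mt-Nd5 held at most 0.0153%. The levels of those 5 mt- genes are therefore uncertain, while mt-Co1, mt-Cytb, mt-Nd1, mt-Nd2, mt-Nd4 and mt-Nd5 carry most of the mitochondrial signal below.

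Another set of sequences comes from the nuclear side. Nuclear respiratory factor 1 (NRF1) is known to bind the motif GCGCANGCGC in many promoters of respiratory genes. This motif, searched on both strands in the 250 bases before each RefSeq start, was present for 13 of the 69 nuclear symbols that matched (18.8%), against 5.84% of 17492 protein-coding genes and 4.23% of all 27025 genes in the same promoter table. A match describes these letters and is not a measured binding site. The stretches below, with the motif in capitals (read on the other strand for Ndufa8), belong to members whose levels are described further on. They lie at chr15:102671055-102671114 (Atp5g2), chr5:115349086-115349145 (Cox6a1), chr16:37654525-37654584 (Ndufb4), chr2:36049339-36049393 (Ndufa8) and chr9:50603894-50603953 (Sdhd), all on the minus strand of GRCm38.p6.
Atp5g2: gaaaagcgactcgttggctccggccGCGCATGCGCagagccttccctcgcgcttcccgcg
Cox6a1: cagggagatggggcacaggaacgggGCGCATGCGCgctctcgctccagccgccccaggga
Ndufb4: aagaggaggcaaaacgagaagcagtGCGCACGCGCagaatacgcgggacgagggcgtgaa
Ndufa8: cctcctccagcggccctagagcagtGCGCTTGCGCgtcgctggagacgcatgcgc
Sdhd: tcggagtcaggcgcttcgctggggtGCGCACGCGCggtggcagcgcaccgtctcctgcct

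Nuclear and mitochondrial subunit transcripts did not move together. The summed level of the nuclear members was 2487, 2818 and 3077 CPM in WT young and 2553 and 3088 CPM in WT old, the lowest groups. It was 4148, 4713 and 3925 CPM in WKO young and 4150, 4107 and 3622 CPM in PKO young, above every wild-type library. DKO young held 3978, 2911 and 4091 CPM, and its replicate 2 lay within the wild-type range. Of the 6 carcinomas, 5 held more than every epidermis library: 5915, 5605 and 5222 CPM in PKO cSCC, and 4831, 6484 and 3558 CPM in DKO cSCC, where the last value is the library labelled DKO cSCC 3.

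The 13 mt- genes followed another order. Their summed level was 17584, 25581 and 41788 CPM in WT young, 9435, 17161 and 29588 CPM in WKO young, and 22354, 28468 and 9208 CPM in PKO young. DKO young held 22181, 39110 and 30654 CPM, and WT old 37092 and 32685 CPM. PKO cSCC held 51407, 21163 and 20740 CPM, and DKO cSCC 23473, 28904 and 57074 CPM. The 4 young groups overlapped each other in this sum, WT old lay above all WKO and PKO young libraries, and single carcinomas stood at the top. Over the 20 libraries the highest nuclear sum was 2.61 times the lowest and the highest mitochondrial sum 6.20 times the lowest.

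**Figure D1:**
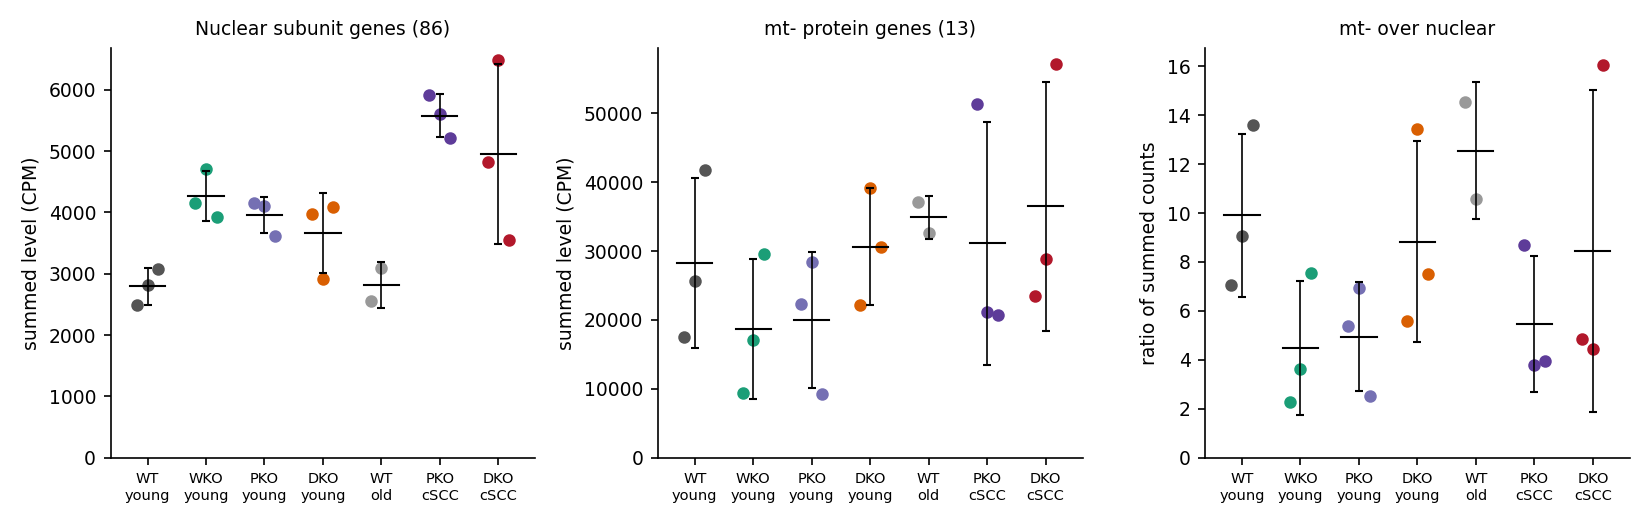
Summed level in CPM of the 86 nuclear and the 13 mt- subunit genes, and the ratio of their summed counts, in each of the 20 libraries by group (points are libraries, horizontal lines group means and error bars 1 SD). The nuclear sums of WKO young, PKO young, PKO cSCC and DKO cSCC lie above all 5 wild-type libraries, whereas the mitochondrial sums overlap among the 4 young groups.

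The ratio of mitochondrial to nuclear subunit counts, which does not depend on library scaling, was lowest in WKO young 1 (2.27) and highest in the library labelled DKO cSCC 3 (16.0), with WT old 1 next (14.5). It was 7.07, 9.08 and 13.6 in WT young, 2.27, 3.64 and 7.54 in WKO young, 5.39, 6.93 and 2.54 in PKO young, and 5.58, 13.4 and 7.49 in DKO young. WT old gave 14.5 and 10.6, PKO cSCC 8.69, 3.78 and 3.97, and DKO cSCC 4.86, 4.46 and 16.0. WT old and WT young held the highest medians, 12.6 and 9.08, and WKO young the lowest, 3.64. No test is given for a sum or ratio over chosen members, and the ranges of WT, WKO and DKO young overlapped.

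The share of each library taken by the mitochondrial ribosomal RNAs mt-Rnr1 and mt-Rnr2 moved with this ratio. The 3 libraries with the lowest ratios, WKO young 1, the library labelled PKO young 3 and WKO young 2, had rRNA shares of 15%, 16.6% and 21.3%. The 4 libraries with the highest ratios had shares of 36.8% to 40.9%. DKO cSCC 1 and 2 stood off this order, with shares of 31.4% and 34.6% at ratios of 4.86 and 4.46, as did PKO cSCC 1, with 39.2% at 8.69. The ratio of mt- protein counts to mitochondrial rRNA counts itself ran from 0.0603 (DKO cSCC 1) to 0.119 (PKO cSCC 3). The part of the rRNA share in the ratio was not tested.

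**Figure D2:**
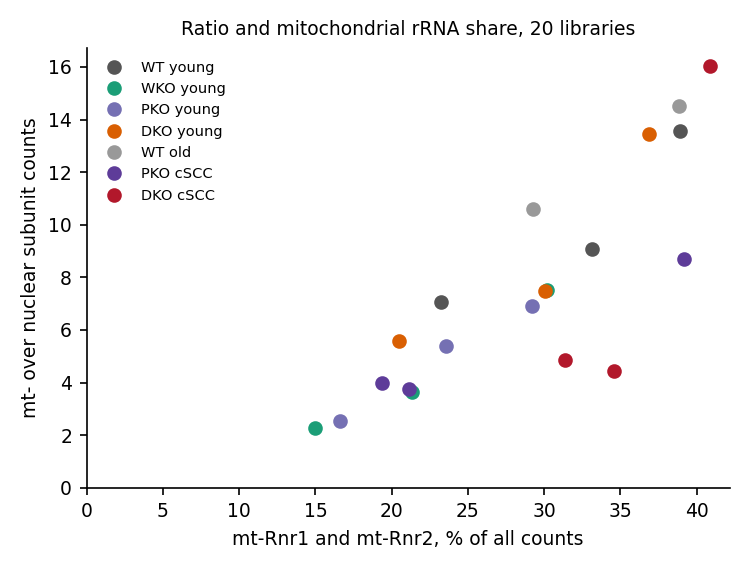
Ratio of summed mt- to nuclear subunit counts (vertical axis) against the share of all counts on mt-Rnr1 and mt-Rnr2 in percent (horizontal axis), 1 point for each of the 20 libraries, coloured by group. Libraries with larger rRNA shares mostly have larger ratios, and DKO cSCC 1 and 2 (31.4% and 34.6%) and PKO cSCC 1 (39.2%) have lower ratios than other libraries of like share.

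The same split ran through each complex that joins products of both genomes. The 38 nuclear genes of complex I summed to 847 ± 75.9 CPM (SD, n = 3) in WT young and 1690 ± 287 CPM (n = 3) in PKO cSCC, whereas its 7 mt- genes summed to 11253 ± 5213 and 12245 ± 7325 CPM. For complex III the nuclear sum was 262 ± 28.9 CPM in WT young, 450 ± 50.04 CPM in WKO young and 597 ± 82.3 CPM in PKO cSCC, and mt-Cytb stood at 4377 ± 2235, 2494 ± 1401 and 4694 ± 3018 CPM. Complex II, with no mitochondrial gene, differed least among young groups, at 162 ± 8.35 CPM in WT, 179.8 ± 13.2 CPM in WKO, 179 ± 16.3 CPM in PKO and 136 ± 21.9 CPM in DKO young. In every complex with both kinds of gene, the SD of the mitochondrial sum was a larger part of its mean than that of the nuclear sum in all 6 groups of 3 libraries.

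Within groups, mitochondrial transcripts also varied more. The median within-group SD of log2(CPM + 1) was 0.30 over the 77 nuclear members with a mean of at least 5 CPM, 0.73 over the 13 mt- genes, and 0.35 over all 11023 genes at that level. The nuclear range ran from 0.16 (Ndufv3) to 1.03 (Ndufa4l2). After subtraction of group means, the median Pearson correlation over the 20 libraries was 0.59 for pairs of nuclear members, 0.85 for pairs of mt- genes and -0.06 for nuclear with mt- pairs. These correlations share library depth and scaling and are given as a description.

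Levels between genes were compared per kilobase of exon. Among mt- genes, mt-Co1, the catalytic core of cytochrome c oxidase, averaged 6395 CPM per kilobase over the 20 libraries, mt-Cytb, the cytochrome b of complex III, 3635 and mt-Nd1, a core membrane subunit of complex I, 2892. Among nuclear genes the highest in their complexes were Atp5a1, the alpha subunit of the ATP synthase, at 112 CPM per kilobase, Cox4i1 at 88.6, Ndufb9 at 78.5, Uqcrh at 56.2 and Sdha, the flavoprotein of succinate dehydrogenase, at 22.6. mt-Nd6, the single protein gene read from the opposite strand, made up 0.640% to 1.32% of mt- protein counts in every library.

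Isoforms of heart and skeletal muscle were nearly silent. Cox6a2, Cox7a1 and Cox8b, the forms of those tissues, reached at most 0.491, 0.273 and 0.382 CPM in any library, and the testis form Cox8c was at 0 in all 20, which for a single library allows up to 3 counts. Cox6b2, known as the testis form of Cox6b1, was low but detected in 18 of 20 libraries, at up to 2.89 CPM in DKO cSCC 1. The ubiquitous partners Cox6a1, Cox7a2 and Cox8a ranged over 19.9 to 54.0, 9.12 to 46.1 and 29.5 to 67.5 CPM. A sum of 12 skeletal muscle markers was 116 CPM in WT young 1 and at or under 20.3 CPM elsewhere. The maxima of Cox6a2, Cox7a1 and Cox8b were also in WT young 1, at 9, 5 and 7 counts. Cox4i2, the oxygen-responsive form of Cox4i1, was at or under 0.872 CPM in all 14 epidermis libraries. It reached 7.83 CPM in PKO cSCC 2 and 1.26, 3.48 and 3.21 CPM in DKO cSCC. Endothelial and mural cell markers (10 genes) summed to 252 CPM in PKO cSCC 2 and 160, 205 and 636 CPM in DKO cSCC. Their sum was 87.4 and 47.4 CPM in PKO cSCC 1 and 3, and 31.5 to 188 CPM in epidermis. The part of these cells in the Cox4i2 levels was not tested.

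In young epidermis without Wwox, nuclear subunit transcripts of complexes I, III, IV and V were higher than in wild type. Of 79 nuclear members that passed the count filter, 38 rose and none fell by edgeR's quasi-likelihood test (adjusted p under 0.05 over 16627 genes), where 13.1% of all genes tested were called higher and 8.34% lower. The median log2 fold change was 0.59 over the nuclear members tested and -0.03 over all genes. In 66 nuclear members all 3 WKO libraries lay above all 3 WT libraries, against 26.2% of all genes, and in none did they all lie below, against 25.4%. By the complex in the symbol, 18 of 38 members of complex I (Ndufa4l2 among them) and 5 of 8 of complex III rose. So did 5 of 12 tested of complex IV and 10 of 17 tested of complex V, while none of the 4 members of complex II passed the test. The counts depended on single libraries: 7 were called without WKO young 2, 14 without WKO young 3, 9 without WT young 1 and 14 without WT young 2. With the WT young libraries low in keratinocyte and high in T cell markers, genotype and cell make-up cannot be told apart in this comparison or in those of PKO and DKO with WT young.

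The largest rise was that of Ndufa4l2, a paralog of the cytochrome c oxidase subunit Ndufa4 and a known target of the hypoxia-inducible factor HIF1. It stood at 4.47, 6.67 and 8.74 CPM in WT young and at 45.7, 68.6 and 65.0 CPM in WKO young. The groups did not overlap, and the log2 fold change was 3.17 ± 0.66 (SE, adjusted p = 0.0146, edgeR). Without WT young 1 the call was lost (adjusted p = 0.0522). Ndufa4 itself was at 16.2, 16.7 and 23.3 CPM in WT young and between 20.5 and 20.96 CPM in WKO young, and the groups overlapped.

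Uqcrc1, a core protein of complex III, was next, at 57.0, 65.6 and 75.7 CPM in WT young and 128, 150 and 128 CPM in WKO young. Its log2 fold change was 1.03 ± 0.19 (adjusted p = 0.0126), and it passed the test under all 14 alternatives run. Uqcrfs1, the Rieske iron-sulfur protein of the same complex, rose by 0.85 ± 0.17 on the log2 scale (adjusted p = 0.0136). Uqcr11, a small subunit, rose by 0.96 ± 0.27 (adjusted p = 0.0326), and was not called under 7 of 14 alternatives.

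Among ATP synthase subunits, Atp5g2 encodes 1 of 3 precursors of the proton-carrying c ring. It was at 15.8, 17.96 and 23.2 CPM in WT young and 31.4, 39.7 and 34.1 CPM in WKO young, a log2 change of 0.88 ± 0.17 (adjusted p = 0.0128). Atp5d, which encodes the delta subunit, rose by 0.84 ± 0.15 (adjusted p = 0.0126). Both passed the test under all 14 alternatives. Cox4i1 and Cox6a1 of cytochrome c oxidase each rose by 0.83 on the log2 scale (SE 0.18 and 0.20, adjusted p = 0.0150 and 0.0203). The accessory complex I subunits Ndufb4 and Ndufa7 each rose by 0.84 (SE 0.27 and 0.24, adjusted p = 0.0484 and 0.0347), and lost the call under 11 and 8 of 14 alternatives. Of the 13 members with the promoter motif shown above, all passed the count filter and 5 were among the 38 that rose. Of the other 56 matched symbols, 53 passed the filter and 26 rose.

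None of the 13 mt- genes passed the test in WKO against WT young, with edgeR or with DESeq2, and 0 had an unadjusted p under 0.05, against 38.7% of all genes in either direction. All 13 log2 fold changes were negative, with a median of -0.73 and a range of -0.92 to -0.16. mt-Co1 stood at 6198, 8802 and 13036 CPM in WT young and 3599, 6140 and 11149 CPM in WKO young, so the groups overlapped. Its log2 fold change was -0.42 ± 0.53 (adjusted p = 0.581).

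**Figure D3:**
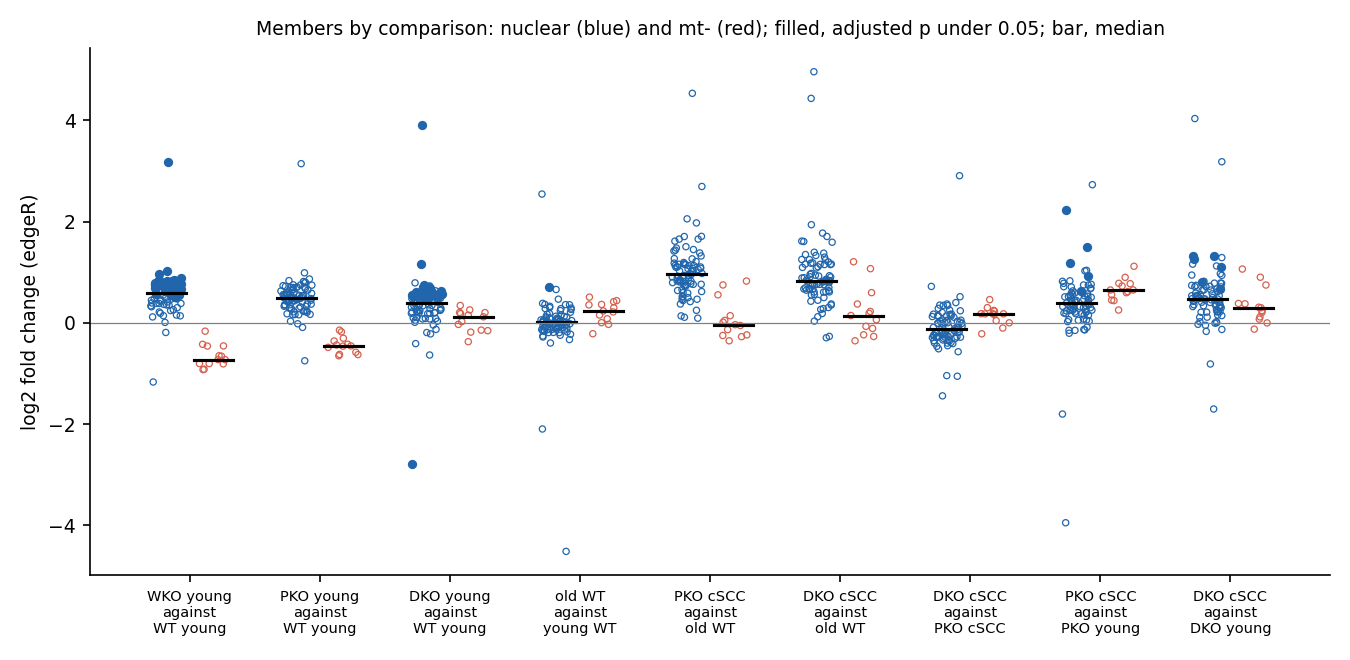
Log2 fold change from edgeR of each tested nuclear (blue) and mt- (red) member in the 9 comparisons, with filled points for adjusted p under 0.05 and bars for medians. Nuclear medians lie above 0 in the 3 young knockout comparisons and in the 4 that set carcinomas against epidermis, and no mt- point is filled in any comparison.

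In young epidermis with p53 deleted, no member passed edgeR's test against WT young, where 1 of 16627 genes did (0.00601% higher, 0% lower). At an unadjusted p under 0.05 there were 49 nuclear and 0 mt- members, against 25.1% of all genes in either direction. DESeq2 called 23 members, all nuclear and higher, and 6.21% of all 34420 genes in its table in either direction. Of the 79 nuclear members tested, 76 had positive log2 fold changes, with a median of 0.49. In 62 all 3 PKO libraries lay above all 3 WT libraries, against 13.4% of all genes, and in none did they all lie below, against 14.2%. Without the library labelled PKO young 3, whose T cell and keratinocyte markers resembled those of WT young, 29 members were called. Without the libraries labelled PKO young 2 and 3, whose Trp53 goes against the label, 6 were called on the single remaining PKO library, which is then assumed to vary as the other groups do.

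The smallest p values belonged to Ndufs4, Ndufa4l2 and Uqcrc1. Ndufs4, an accessory subunit of the NADH-oxidising arm of complex I, was at 20.6, 16.4 and 22.9 CPM in WT young and 38.7, 36.6 and 30.4 CPM in PKO young (log2 fold change 0.82 ± 0.17, adjusted p = 0.0539). Ndufa4l2 was at 52.8, 113 and 10.1 CPM in PKO young, the lowest value in the library labelled PKO young 3 (3.14 ± 0.66, adjusted p = 0.0539). Uqcrc1 was at 143, 128 and 90.7 CPM (0.87 ± 0.19, adjusted p = 0.0539). All 3 sets of libraries lay above WT young without overlap. The 13 mt- genes had a median log2 fold change of -0.46, all 13 negative.

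In young epidermis without both genes, 20 of 79 nuclear members rose and 1 fell against WT young, where 15.8% of all genes were called higher and 12.1% lower. The nuclear median was 0.39 on the log2 scale. In 23 of 79 nuclear members the groups did not overlap, with DKO higher, against 23.7% of all genes, a share near that of the members, and in 3 with DKO lower, against 24.7%. Complex II again had no called member, and Sdha was at 90.8, 95.7 and 105 CPM in WT young and 78.5, 61.4 and 81.1 CPM in DKO young (-0.41 ± 0.15, adjusted p = 0.0643). The call count was 33 without DKO young 2, 2 without DKO young 1, 5 without WT young 1 or WT young 2, and 11 without WT young 3. Without the library labelled DKO young 3 it was 5.

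Ndufa4l2 had the largest change here too, at 99.5, 100.0 and 100.5 CPM in DKO young (log2 fold change 3.91 ± 0.68, adjusted p = 0.00645). The 3 libraries lay within 1 CPM of each other, and the call held under all 14 alternatives. Ndufv3, an accessory subunit of the NADH dehydrogenase module, was at 22.3, 24.0 and 22.0 CPM in WT young and 37.5, 31.3 and 37.0 CPM in DKO young (0.62 ± 0.13, adjusted p = 0.00963), also called under all 14. Uqcrfs1 rose by 0.71 ± 0.17 (adjusted p = 0.0152) and Atp5g1, another c ring gene, by 0.75 ± 0.20 (adjusted p = 0.0229). The remaining members among the 10 largest rises were Atp5s, Ndufb2, Cox7b, Ndufs4, Uqcrh and Uqcrc1, at 0.60 to 1.15. Atp5s, a coupling factor of the ATP synthase, had means of only 1.46 CPM in WT young and 3.28 CPM in DKO young.

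The member that fell was Cox6b2, which was at 0.927, 1.09 and 1.24 CPM in WT young and 0.132, 0.218 and 0.0992 CPM in DKO young (-2.78 ± 0.84, adjusted p = 0.0335), a few counts per library. The mt- genes had a median log2 fold change of 0.12 in this comparison, with 8 positive and 5 negative.

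At the adjusted threshold, the effect of p53 loss on members in young epidermis was not shown to depend on Wwox. DKO young was not tested against WKO young or PKO young directly. The interaction, p53 loss with Wwox already lost minus p53 loss alone, called 0 of 92 members tested and 0 of 16627 genes by edgeR. At an unadjusted p under 0.05 there were 51 members, against 20.3% of all genes, and the smallest adjusted p was 0.111 (Uqcrc1). Of the 92 differences, 13 were positive, a count that pools nuclear and mt- members and gives direction, not size. In WKO, PKO and DKO against WT young, median log2 fold changes were 0.59, 0.49 and 0.39 for nuclear members. For mt- genes they were -0.73, -0.46 and 0.12. These contrasts share the WT young libraries.

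**Figure D4:**
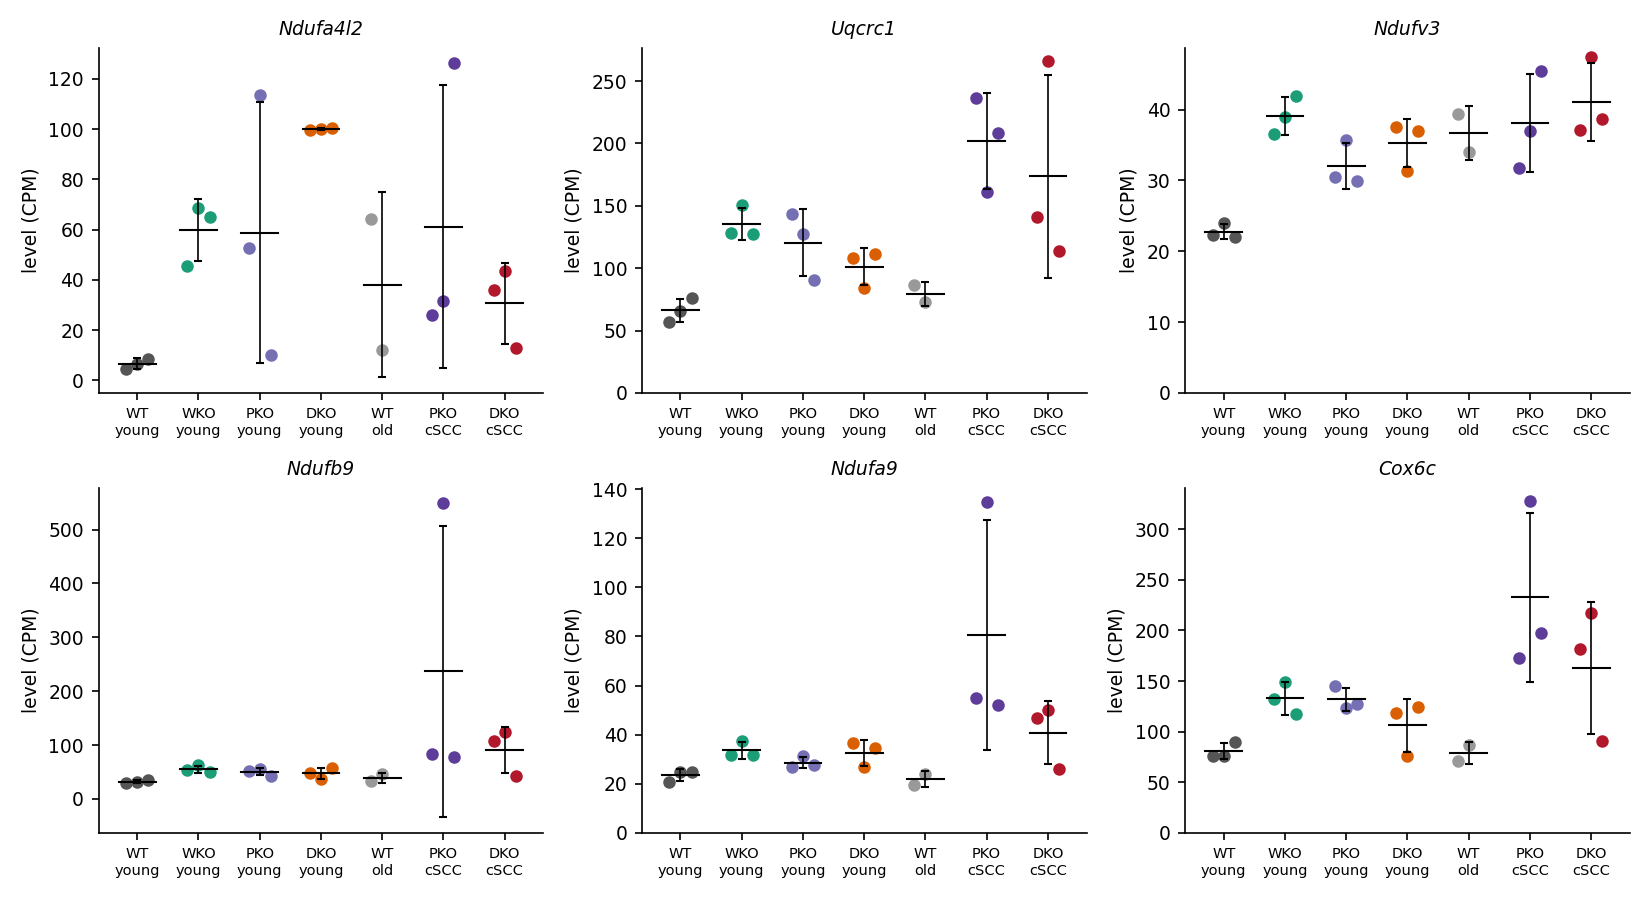
Level in CPM of 6 nuclear members in each library by group (points are libraries, lines means, error bars 1 SD). Ndufa4l2 is lowest in the 3 WT young libraries (4.47 to 8.74 CPM), and 1 PKO carcinoma stands far above all other libraries in Ndufb9 (549 CPM) and Ndufa9 (135 CPM).

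With age, wild-type epidermis showed little change in these genes. Ndufv3 alone passed the test in old against young WT, at 39.4 and 33.9 CPM in old and 22.3, 24.0 and 22.0 CPM in young libraries (log2 fold change 0.70 ± 0.14, adjusted p = 0.0381), where 1.73% of 17622 genes were called higher and 0.261% lower. In 5 of 80 nuclear members tested both old libraries lay above all young ones, against 19.2% of all genes, and in 2 below all of them, against 21.2%. The call was lost when any 1 of the 5 libraries was left out, when all 20 libraries were fitted, and when genes of low count were kept (adjusted p = 0.131). The nuclear median was 0.01 and the mitochondrial median 0.23 on the log2 scale. Ndufa4l2 was at 64.1 and 12.1 CPM in old WT, both above every young WT library, but the adjusted p was 0.0971. Cell markers differed between the ages too, and their part in the values was not tested. T and NK cell markers summed to 173 and 426 CPM in old WT, below every WT young library, and differentiated keratinocyte markers to 7697 and 2789 CPM, above every one.

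**Figure D5:**
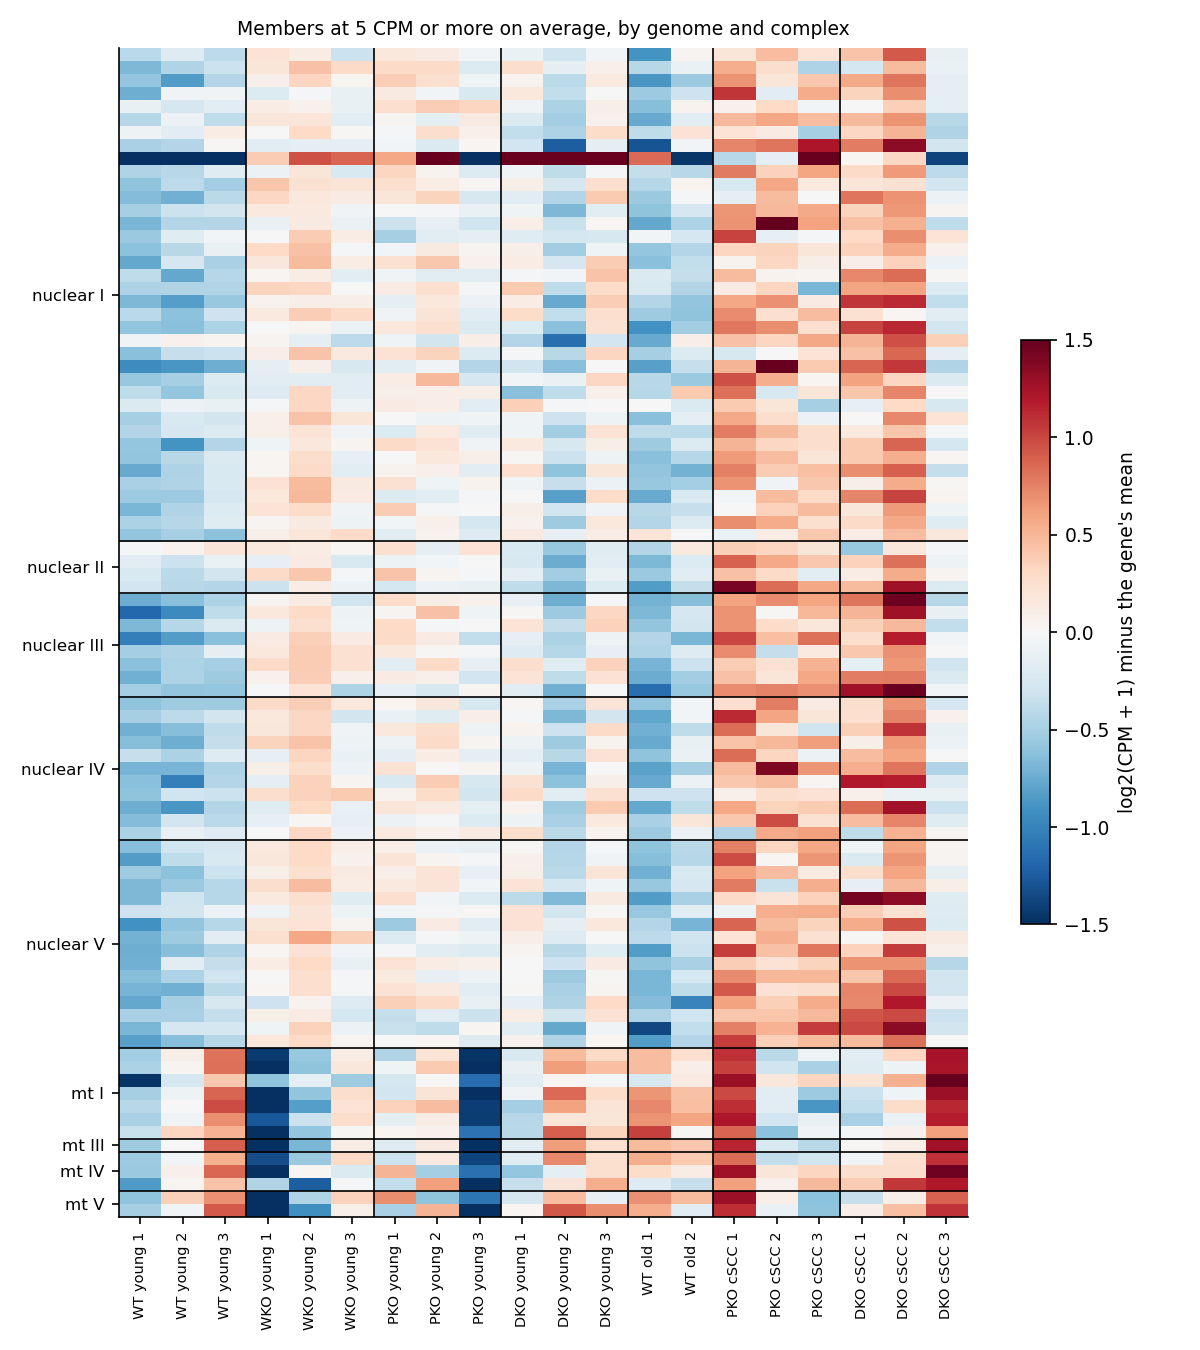
Log2(CPM + 1) of each member with a mean of at least 5 CPM, minus its mean over the 20 libraries, in rows ordered by genome and complex and in columns by library (red above and blue below the mean). Of the 77 nuclear rows, 0 to 8 are above their mean in the 5 wild-type libraries. In 5 of the 6 carcinomas 66 to 76 are, and 19 in the library labelled DKO cSCC 3. The mt- rows follow a separate pattern. None of them is above its mean in WT young 1, WKO young 1 and PKO young 3. All 13 are in WT young 3, PKO cSCC 1 and DKO cSCC 3.

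In PKO carcinomas every tested nuclear member had a higher fitted level than in old WT epidermis. All 80 log2 fold changes were positive, with a median of 0.96 against 0.06 over all genes. In 61 of them all 3 carcinomas lay above both old libraries, against 22.3% of all genes, and in none did they all lie below, against 23%. No member passed edgeR's test in the fit of 8 libraries, where 0.00605% of 16526 genes were called higher and as many lower. At an unadjusted p under 0.05 there were 49 nuclear and 0 mt- members, against 27.7% of all genes in either direction. DESeq2 called 15 members and 7.57% of the 33042 genes in its table. When the spread was estimated over all 20 libraries, 44 members were called, all nuclear and higher, against 21.3% of all genes in either direction. The 13 mt- genes had a median of -0.04, with 6 positive and 7 negative.

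Cell markers moved with this comparison. Differentiated keratinocyte markers summed to 747, 155 and 1847 CPM in PKO cSCC and 7697 and 2789 CPM in old WT, with 1 of 9 at 0 in PKO cSCC 1. T and NK cell markers summed to 78.4, 56.2 and 26.4 CPM against 173 and 426 CPM, with 1 of 15 at 0 in PKO cSCC 1 and 3 in PKO cSCC 3. Basal keratinocyte markers overlapped, at 9088 to 29117 CPM against 3105 and 10039 CPM. The part of cell make-up in the nuclear subunit levels was not tested.

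The 3 members with the smallest p were Ndufb5, Ndufa8 and Atp5o. Ndufb5, an accessory subunit of complex I, was at 39.4, 28.2 and 33.1 CPM in PKO cSCC and 16.0 and 15.2 CPM in old WT (log2 fold change 1.18 ± 0.27, adjusted p = 0.0667). Ndufa8, another accessory subunit, was at 45.8, 40.4 and 43.1 CPM against 18.5 and 23.8 CPM (1.10 ± 0.27, adjusted p = 0.0754). Atp5o, which ties the head of the ATP synthase to its stalk, was at 124, 77.1 and 83.6 CPM against 33.0 and 43.7 CPM (1.38 ± 0.34, adjusted p = 0.0754). The groups did not overlap for any of the 3.

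In DKO carcinomas 78 of 80 nuclear members had positive log2 fold changes against old WT, with a median of 0.83, and in 55 all carcinomas lay above both old libraries, against 17.9% of all genes, and in none below, against 16.9%. No member and 0 of 16526 genes (0%) passed edgeR's test. At an unadjusted p under 0.05 there were 40 nuclear members and 1 mt- gene, against 14.5% of all genes in either direction. DESeq2 called 3 members and 2.25% of the 33042 genes in its table, and the fit of all 20 libraries called 14 members and 4.32% of all genes. Without the library labelled DKO cSCC 3 the count stayed at 0. Uqcrq, the ubiquinone-binding subunit of complex III, was at 118, 138 and 47.4 CPM against 21.6 and 32.4 CPM (1.94 ± 0.47, adjusted p = 0.195). Atp5k, subunit e of the ATP synthase, was at 61.3, 85.7 and 34.4 CPM against 23.1 and 17.8 CPM (1.59 ± 0.40, adjusted p = 0.212). In both genes the library labelled DKO cSCC 3 was the lowest carcinoma, and each carcinoma lay above both old libraries.

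The gap between nuclear and mitochondrial medians in the DKO carcinomas depended on that library. The nuclear minus mitochondrial difference in median log2 fold change against old WT was 0.69 with all libraries and 1.38 without the library labelled DKO cSCC 3. In PKO carcinomas it was 1.0, and 1.58 without PKO cSCC 1, which had the highest mitochondrial sum of its group. The library labelled DKO cSCC 3 also stood apart from the other DKO carcinomas in cell markers. Its differentiated keratinocyte markers summed to 14092 CPM (483 and 2582 CPM in DKO cSCC 1 and 2), its melanocyte markers to 539 CPM (11.9 and 9.66 CPM), its endothelial and mural cell markers to 636 CPM (160 and 205 CPM) and its Langerhans and dendritic cell markers to 2337 CPM (252 and 722 CPM). Their part in the gap was not tested. T and NK cell markers summed to 46.0, 107 and 133 CPM in the DKO carcinomas, below the 173 and 426 CPM of old WT.

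Set against each other, DKO and PKO carcinomas showed no called member, where 0.00605% of all genes were called higher and 0% lower. The groups did not overlap in 1 member with DKO higher (7.46% of all genes) and in 4 with DKO lower (5.94% of all genes), namely Ndufa9, Ndufb5, Sdha and Atp5g2. At an unadjusted p under 0.05 there were 2 nuclear members, against 8.1% of all genes, and DESeq2 called 0 members and 0.666% of all genes. The nuclear median was -0.12 and the mitochondrial median 0.18. Cox6b2 (2.90 ± 1.22, adjusted p = 0.615), Ndufa9 (-1.04 ± 0.45, adjusted p = 0.615) and Ndufb5 (-0.51 ± 0.23, adjusted p = 0.619) had the smallest p values. With SEs of this size, changes of the size seen between carcinomas and epidermis would not have been detectable for many members.

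Against young epidermis of the same genotype, PKO carcinomas had 5 of 81 tested nuclear members higher and none lower, where 5.33% of 18164 genes were called higher, a share near that of the members, and 6.16% lower. In 38 nuclear members all PKO carcinomas lay above all PKO young libraries, against 12.9% of all genes, and in 1 below, against 12.3%. The nuclear median was 0.39 and the mitochondrial median 0.65, with all 13 mt- genes positive and none called (0 by DESeq2). At an unadjusted p under 0.05 there was 1, against 28.5% of all genes. Sdhd, the membrane anchor of succinate dehydrogenase whose promoter stretch is shown above, was at 17.9, 20.4 and 20.1 CPM in PKO young and 60.4, 39.8 and 33.2 CPM in PKO cSCC. The groups did not overlap, and the log2 fold change was 1.19 ± 0.31 (adjusted p = 0.0245). Atp5g3, the third c ring gene, was at 47.6, 43.0 and 42.1 CPM in PKO young and 101, 66.1 and 85.2 CPM in PKO cSCC (0.93 ± 0.24, adjusted p = 0.0223). Ndufa8 was at 28.5, 28.2 and 26.6 CPM in PKO young (0.63 ± 0.19, adjusted p = 0.0403). T and NK cell markers, given above for the carcinomas, summed to 828, 310 and 4004 CPM in PKO young, above every PKO carcinoma. Differentiated keratinocyte markers, at 2473, 10803 and 964 CPM in PKO young, overlapped with those of the carcinomas. The part of cell make-up in this comparison was not tested.

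The 2 largest changes rested on PKO cSCC 2. Ndufb9, an accessory subunit of complex I, was at 52.2, 56.3 and 43.1 CPM in PKO young and 84.0, 549 and 77.0 CPM in PKO cSCC (2.23 ± 0.58, adjusted p = 0.0248). Ndufa9, an accessory subunit that helps hold the arms of complex I together, was at 27.0, 31.2 and 27.4 CPM in PKO young and 54.9, 135 and 52.1 CPM in PKO cSCC (1.5 ± 0.32, adjusted p = 0.00986). In both genes all 3 carcinomas still lay above all 3 young libraries. The number of members called was 5 without PKO cSCC 2, as with it, 2 without PKO cSCC 1 or PKO young 1, 1 without the library labelled PKO young 2 or 3, and 0 without both of these.

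DKO carcinomas had 6 of 81 tested nuclear members higher than DKO young epidermis and none lower, where 3.27% of all genes were called higher and 4.03% lower. In 14 the carcinomas lay above all young libraries, against 14.2% of all genes, and in 2 below, against 16%. Of the 6, 2 belonged to complex II, namely Sdhb, its iron-sulfur subunit (log2 fold change 0.80 ± 0.23, adjusted p = 0.0459), and Sdhd (1.09 ± 0.31, adjusted p = 0.0446). Sdhd was at 16.5, 13.3 and 18.7 CPM in DKO young and 30.6, 54.1 and 18.7 CPM in DKO cSCC, where the last library, labelled DKO cSCC 3, lay within the young range. Ndufb7, an accessory subunit of complex I, was at 18.8, 11.2 and 20.9 CPM in DKO young and 37.1, 51.6 and 33.4 CPM in DKO cSCC (1.26 ± 0.26, adjusted p = 0.0104), and the groups did not overlap. Uqcrq (1.33 ± 0.31, adjusted p = 0.0194), Atp5e, the epsilon subunit of the ATP synthase (1.33 ± 0.33, adjusted p = 0.0243), and Ndufa8 (0.66 ± 0.19, adjusted p = 0.0452) were the others. No mt- gene was called (0 by DESeq2), and 1 had an unadjusted p under 0.05, against 24.7% of all genes. The mitochondrial median was 0.30 beside a nuclear median of 0.48.

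The libraries that go against their labels weighed on this comparison. Differentiated keratinocyte markers, given above for the carcinomas, summed to 14034, 10551 and 9585 CPM in DKO young. The part of these markers was not tested. Without the library labelled DKO cSCC 3, 29 members were called, and without it and the library labelled DKO young 3, 30, all higher and all nuclear. The nuclear median then became 0.91 and the mitochondrial median -0.14. Leaving out DKO cSCC 1, DKO young 1 or DKO young 2 left 1 call, leaving out DKO cSCC 2 left 0, and leaving out the library labelled DKO young 3 alone left 3. The difference between the DKO and PKO changes from young epidermis to carcinoma called 0 of 94 members (3 at an unadjusted p under 0.05, against 12.6% of all genes, smallest adjusted p 0.228, Cox6b2).

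Genes that build or feed the complexes were set beside their subunits. In WKO against WT young, 5 of 46 tested assembly factors rose and 1 fell, 5 of 18 citric acid cycle enzymes rose, 3 of 11 electron and membrane carriers rose, and 6 of 78 mitochondrial ribosomal protein genes rose. Of 27 genes of mitochondrial transcription and RNA handling, 2 rose and 1 fell. Over all genes 13.1% were called higher and 8.34% lower, so the shares that rose among assembly factors, ribosomal proteins and RNA handling genes were below the background. Their median log2 fold changes were 0.14, 0.33 and 0.11 in that order, against -0.03 over all genes, and 0 ribosomal protein genes fell. Acad9, an assembly factor of complex I, rose by 1.12 ± 0.26 on the log2 scale (adjusted p = 0.0185), citrate synthase (Cs) by 0.90 ± 0.17 (adjusted p = 0.0126) and Pdk1, the kinase that restrains pyruvate entry into the cycle, by 1.60 ± 0.28 (adjusted p = 0.0126). Of 11 tested regulators of mitochondrial gene expression, 1 rose and 1 fell in WKO, with a median log2 fold change of 0.03. Myc, a transcription factor known to promote mitochondrial gene expression, rose by 2.49 ± 0.43 (adjusted p = 0.0126) in WKO and by 3.64 ± 0.45 (adjusted p = 0.00615) in DKO young. In DKO against WT young, 1 of 46 assembly factors rose and 2 fell, 4 of 18 cycle enzymes rose, and 3 of 11 regulators rose and 1 fell. There 15.8% of all genes were called higher and 12.1% lower.

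Against old WT, mitochondrial ribosomal protein genes had, of the 6 related lists, the median nearest to that of the nuclear subunits in both kinds of carcinoma. Their median log2 fold change was 1.0 in PKO cSCC and 0.79 in DKO cSCC, comparisons in which edgeR called at most 2 genes of all tested. Against young epidermis, 10 of 78 rose in PKO cSCC and 6 of 78 in DKO cSCC, and none fell, where 5.33% and 3.27% of all genes were called higher and 6.16% and 4.03% lower. There the electron and membrane carriers had the nearest medians, 0.37 and 0.49, beside 0.39 and 0.48 for the subunits. Mrpl13, a protein of the large mitochondrial ribosomal subunit, had the smallest p of these in PKO cSCC and rose from a mean of 17.3 to 66.5 CPM (log2 fold change 1.94 ± 0.44, adjusted p = 0.0136). Transcripts of Hif1a, the hypoxia-inducible factor, rose in PKO cSCC against PKO young by 2.03 ± 0.41 (adjusted p = 0.00844). Ndufa4l2 had a log2 fold change of 0.06 ± 0.75 (adjusted p = 0.972) there, over PKO young libraries that lay far apart, as given above. Only RNA was measured, and a link between these genes was not tested.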

How the data were processed

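Strand-marked total RNA libraries were made from 5 ng of RNA of sorted cells, per the labels' protocols. The authors deposited a table of estimated counts per gene (expected counts, here all whole numbers), made, per the submitters' processing notes, with Salmon 0.13.1 among the tools named (the others being DESeq2 1.28.1, Trim Galore 0.4.1 and FastQC 0.11.5). The notes name build mm39. Symbols, classes and transcripts came from GENCODE M21 (GRCm38) and promoters from RefSeq (GRCm38.p6). Members, gene lists and tests were chosen with earlier results of these data known.

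CPM values use TMM scaling over all 20 libraries. Each comparison was fitted by edgeR 4.0.16 (R 4.3.3) with its quasi-likelihood test, default count filter and Benjamini-Hochberg adjustment over all genes tested. Young, old with young, carcinoma with old, and all libraries (carcinoma with young) were separate fits, which share one spread within a fit. Scripts were tested on simulated data. Alternatives were DESeq2 1.42.0, other scaling and filters, a fit of all libraries, the replicate number as a block, and leaving out libraries. Near-identical copies were found with blastn 2.17.0. The members named were, in each comparison, the 10 with the largest change in each direction among those passing the test, or the 3 with the smallest p where none passed, the highest and the smallest-p member of each complex, isoform pairs, c ring genes and mt- genes. Up to 3 genes of each related list with the smallest p could be named. The cell marker lists used are those for basal and differentiated keratinocytes, fibroblasts, T and NK cells, and erythrocytes. Also used are those for skeletal muscle, melanocytes, endothelial and mural cells, and Langerhans and dendritic cells.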

Additional observations from a re-analysis of the deposited data

Results flagged for a closer look

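Of the counts of mt-Nd3 and its nuclear copy Gm28438 together, 86.14% lay on the copy, summed over the 20 libraries. The share was 83.71% for mt-Co2 (Gm28661 and Gm13341), 75.18% for mt-Atp6 (Gm10925), 71.09% for mt-Co3 (Gm28437) and 34.54% for mt-Nd4l (Gm10222). These copies lie outside the genes compared in the report. Gm13341 had 112 counts over all libraries and was at 0 in some, while each of the other 5 copies had at least 279 counts in every library. The share varied between libraries, from 4.17% to 59.1% for mt-Nd4l and from 47.7% to 87.4% for mt-Atp6. With the copies added, the ratio of mitochondrial to nuclear subunit counts ran from 3.14 to 21.1, and its median in old WT was 15.8.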

How the results depend on the processing

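No called value changed sign, and no mt- gene was called under any alternative run. Counts of members called moved as follows. Without a low-count filter they were 5 in PKO young, 3 in DKO young, 11 in PKO cSCC and 4 in DKO cSCC against old WT. With a minimum of 10 CPM they were 5 in PKO young, 11 in DKO young, 13 in PKO cSCC and 18 in DKO cSCC against young epidermis. DESeq2 called 23 in PKO young, 3 in old WT, 15 and 3 in PKO and DKO cSCC against old WT, and 9 and 13 against young epidermis. The fit of all 20 libraries called 17 in WKO, 7 in DKO, 0 in old WT, and 44 and 14 in PKO and DKO cSCC against old WT, and the fit of 12 PKO and DKO libraries called 1 in each carcinoma against its young epidermis. With mt- genes left out of library sizes PKO young had 6. The cause of these moves was not tested.

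Leaving out 1 library gave 7 to 30 calls in WKO, 0 to 29 in PKO, 2 to 33 in DKO, 0 in old WT, 0 in carcinomas against old WT and against each other, 1 to 5 in PKO cSCC against PKO young and 0 to 29 in DKO cSCC against DKO young. Without the libraries labelled PKO young 2 and 3 there were 6 in PKO young and 0 in PKO cSCC against PKO young, and without the libraries labelled DKO young 3 and DKO cSCC 3 there were 30 in DKO cSCC against DKO young. These alternatives were chosen after seeing the data. Without the latter pair the nuclear minus mitochondrial difference in median log2 fold change moved from 0.18 to 1.05 in that comparison. For PKO cSCC against old WT it ran from 0.65 to 1.58 with 1 library left out. With 1 library left out that difference changed sign in DKO young, old WT, DKO against PKO cSCC, and carcinoma against young epidermis of either genotype.

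Correlations of same-numbered libraries' deviations ran from -0.34 to 0.36. All 3 were positive in WKO against WT young (0.06 to 0.25) and both in PKO cSCC against old WT, but no comparison had every pair over 0.1, the level set for taking the numbers as pairs. With the replicate block, calls were 24 in WKO, 8 in DKO, 0 in old WT and 2 in DKO cSCC against DKO young. Taking the median gene in place of sums set the ratio medians at 65.1, 22.9, 34.2 and 37.1 in WT, WKO, PKO and DKO young, 80.2 in old WT, and 29.9 and 25.6 in PKO and DKO cSCC. Adding the nuclear copies to the mt- genes set the old WT median at 15.76. Among values of named members under alternatives, 437 kept their side of the threshold, 163 lost the call and 32 gained it. Members under about 1 CPM rest on a few counts per library.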

Other observations

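PKO cSCC 2 stood apart in 3 nuclear members, which were singled out after their values were seen. Ndufb9 was at 549 CPM, against 30.0 to 123 CPM in the other 19 libraries. Ndufa9 was at 135 CPM, against 19.6 to 54.9 CPM, and Cox6c, a small subunit of cytochrome c oxidase, at 328 CPM, against 71.0 to 217 CPM. The expressed genes next to Ndufb9 on chromosome 15 were also high in this carcinoma. Tatdn1, its nearest neighbour on one side, was at 61.5 CPM against a median of 6.50 CPM in the other 5 carcinomas, and Mtss1, on the other side, at 490 CPM against 66.1 CPM. All 4 neighbours on either side were higher, by 1.36 (Sqle) to 3.06 (Tatdn1) on the log2 scale. The median over 438 expressed genes of chromosome 15 was 0.39 above that of the other carcinomas on the log2 scale, against -0.16 to 0.05 for the other 5 carcinomas set against their own others.

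Around Ndufa9 on chromosome 6 the pattern was uneven. Kcna6, a potassium channel gene, was at 174 CPM against a median of 0.386 CPM in the other 5 carcinomas and Parp11 at 24.5 against 5.30 CPM, while Plekhg6 was at 18.1 against 15.2 CPM. Next to Cox6c on chromosome 15, log2 differences ran from -0.70 (Vps13b) to 1.98 (Ankrd46). No other chromosome had a median as high as that of chromosome 15 in this library, and the lowest were chromosomes 10 at -0.51 and 7 at -0.44. This tumour is represented by 1 library.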
